A study of Mus musculus with 3 samples.

Results

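The FOXO, p53 and redox stress genes were 10 genes taken by name: Foxo1, Foxo3, Foxo4, Trp53, Mdm2, Sirt1, Txnip, Sod2, Nfe2l2 and Hif1a. The rule set no threshold on a measured value, but the names were chosen with earlier results of these data known. They were 10 of 21911 coding genes counted. Each was read as chromatin accessibility, from the ATAC fragments over its promoter, over the open sites in its counted region, and over its gene body with 2 kb upstream. The cells were the barcodes of the antibody table with at least 10 summed tags. Levels were taken over all of these cells, then compared between cells that differed in antibody counts or in the share of their ATAC reads that came from mitochondrial DNA.

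All values came from 1 pool of long-term haematopoietic stem cells (HSCs) from bone marrow of female, wild-type mice that were 24 months old, of the C57BL/6J strain per the study's methods. The cells were enriched for c-Kit and sorted as lineage-negative Sca-1+ c-Kit+ CD150+ CD48- CD34-. DOGMA-seq, which reads open chromatin, surface antibodies and RNA in each cell, gave 3 libraries, of which the ATAC fragments, the antibody tags and the per-barcode totals were used and the RNA matrix was not analysed here. No younger, treated or mutant cells entered any comparison. Because there was 1 pool, groups of cells were parts of the same sample and no test was possible. Intervals in brackets are 95% intervals for counting error only, exact Poisson for a level, exact binomial for a share of cells and exact conditional binomial for a ratio. They hold no biological or technical spread.

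FOXO transcription factors are held in the cytoplasm when growth factor signalling through AKT phosphorylates them, and move to the nucleus when that signal is weak or oxidative stress is high. In HSCs they are known for keeping cells quiescent and for holding reactive oxygen species down. p53 is a transcription factor that arrests or kills cells after DNA damage, and MDM2 is both its target and the ligase that degrades it. NRF2, encoded by Nfe2l2, drives antioxidant genes, HIF-1α drives the response to low oxygen, SIRT1 deacetylates FOXO proteins and p53, SOD2 removes superoxide in mitochondria, and TXNIP binds and inhibits thioredoxin.

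The antibody table held 3724 cells, all of them called as cells, and 95 had fewer than 10 tags. The 3629 cells kept carried 38554133 nuclear fragments, with a median of 10300 per cell (range 3859 to 45151) and a median of 29 antibody tags. The 8 HSC marker genes had a median promoter level at the 58.8th percentile of coding genes, between the 36.8th (Ly6a) and the 80.6th. Medians for erythroid, granulocyte and monocyte, macrophage, B cell and T cell markers were at the 29.5th, 23.5th, 32.2nd, 30.4th and 26th percentile. Their highest genes were at the 45.1st, 33.6th, 49.5th, 53.6th and 37.8th, so each list but that for granulocytes and monocytes overlapped the range of the HSC markers. An excess of overlapping fragments, against a Poisson expectation at the mean of all kept cells, was present in 264 of them. That expectation made no allowance for depth, so the excess need not mean more than a single nucleus.

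Open sites were windows of 300 bp with at least 50 Tn5 insertions and at least 4 times the mean of the 10 kb around them, called over the whole genome by the same rule. The 10 genes held 35 of the 72750 sites, and 11 of the 35 lay within 500 bp of a coding start, 1 of these at the start of the neighbouring Wrap53. The stretches printed here are those the values below turn on. They were read from the RefSeq assembly GRCm38.p6 (mm10), run 5′ to 3′ on the strand of the gene, and were cut where an exon of a coding transcript began. The first group is the most open site of all 10 genes (Foxo3, upstream), the other open site around the Mdm2 start (downstream of it), the start sites of Mdm2 and Txnip, and the Foxo4 site 388 bp upstream of its start; the last 3 were the near-start sites with the FOXO letters TGTTTAC on either strand. Capitals mark FOXO matches, p53 half-sites (a run of purines, C, A or T, A or T, G and a run of pyrimidines, with no mismatch allowed), antioxidant response elements (TGACNNNGC) and the hypoxia response core (ACGTG).
Foxo3 upstream site: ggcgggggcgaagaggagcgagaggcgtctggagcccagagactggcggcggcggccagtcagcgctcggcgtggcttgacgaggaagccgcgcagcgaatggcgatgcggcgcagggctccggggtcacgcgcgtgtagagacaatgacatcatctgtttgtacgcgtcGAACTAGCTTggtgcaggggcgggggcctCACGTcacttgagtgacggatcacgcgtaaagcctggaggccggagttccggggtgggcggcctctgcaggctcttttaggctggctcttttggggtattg
Mdm2 start site: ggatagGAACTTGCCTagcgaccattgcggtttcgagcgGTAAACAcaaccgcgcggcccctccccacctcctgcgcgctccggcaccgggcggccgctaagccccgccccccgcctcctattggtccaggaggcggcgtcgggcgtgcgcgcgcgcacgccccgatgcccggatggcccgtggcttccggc
Mdm2 downstream site: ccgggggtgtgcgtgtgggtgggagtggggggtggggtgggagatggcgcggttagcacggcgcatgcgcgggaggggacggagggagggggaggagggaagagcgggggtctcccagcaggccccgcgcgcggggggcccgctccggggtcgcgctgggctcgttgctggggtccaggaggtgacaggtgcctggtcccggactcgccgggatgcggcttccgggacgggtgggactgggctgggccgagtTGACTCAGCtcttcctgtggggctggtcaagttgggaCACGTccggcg
Foxo4 upstream site: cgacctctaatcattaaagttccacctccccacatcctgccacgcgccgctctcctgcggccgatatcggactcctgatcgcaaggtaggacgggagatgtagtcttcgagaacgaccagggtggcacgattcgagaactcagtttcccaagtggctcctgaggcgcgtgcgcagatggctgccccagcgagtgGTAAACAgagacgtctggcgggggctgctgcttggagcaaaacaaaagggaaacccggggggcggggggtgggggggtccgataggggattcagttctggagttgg
Txnip start site: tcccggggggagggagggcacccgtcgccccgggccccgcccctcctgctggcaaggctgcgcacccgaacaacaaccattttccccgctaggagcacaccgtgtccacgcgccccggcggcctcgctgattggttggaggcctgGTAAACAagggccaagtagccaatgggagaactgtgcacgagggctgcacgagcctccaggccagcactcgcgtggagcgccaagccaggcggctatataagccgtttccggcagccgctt

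These stretches were at chr10:42277611-42277910 (minus strand) for Foxo3, chr10:117710759-117710950 (minus strand) and chr10:117710101-117710400 (minus strand) for Mdm2, chrX:101253991-101254290 (plus strand) for Foxo4 and chr3:96557691-96557956 (plus strand) for Txnip. The second group holds sites with matches to the hypoxia core, the E-box (CACGTG, which always contains the hypoxia core) or a p53 half-site at the starts of Sirt1, Hif1a and Trp53. They were at chr10:63339051-63339240 (minus strand) for Sirt1, chr12:73907711-73907903 (plus strand) for Hif1a and chr11:69580256-69580358 (plus strand) for Trp53, and their capitals mark the same motifs and the E-box.
Sirt1 downstream start site: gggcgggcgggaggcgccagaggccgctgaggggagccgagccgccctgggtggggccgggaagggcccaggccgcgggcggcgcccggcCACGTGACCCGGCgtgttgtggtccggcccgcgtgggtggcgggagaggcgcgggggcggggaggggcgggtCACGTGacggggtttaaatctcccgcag
Hif1a start site: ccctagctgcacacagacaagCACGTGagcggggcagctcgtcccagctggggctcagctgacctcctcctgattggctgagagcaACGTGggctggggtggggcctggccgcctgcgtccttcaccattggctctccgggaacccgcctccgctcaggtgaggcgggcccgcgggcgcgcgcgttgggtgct
Trp53 start site: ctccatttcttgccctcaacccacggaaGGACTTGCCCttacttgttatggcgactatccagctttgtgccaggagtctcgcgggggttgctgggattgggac

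FOXO letters were in 4 of the 35 sites, those of Foxo4, Mdm2 and Txnip above and an intronic site of Foxo3, against 3.78% of all open sites. Near coding starts the count was 3 of 11 sites, against 1.85% of all near-start sites. In Txnip the match lay between a pair of CCAAT boxes, at positions 130 and 165 of the window against 146 for the FOXO match. The antioxidant element was in 7 of 35 sites (16.2% of all open sites), the hypoxia core in 8 (19.4%), the E-box in 3 (7.04%) and the p53 half-site in 3 (9.26%). The Mdm2 start site was the only one of the 35 with both a FOXO match and a p53 half-site. A full p53 site, 2 half-sites close together, was in 0 of 35 sites and in 0.0577% of all open sites. This search also allowed no mismatch, so p53 sites that depart from the pattern at any base, at the downstream Mdm2 promoter or elsewhere, were not counted, and the 0 says nothing of p53 binding. These are matches of letters, and binding was not measured.

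Among the FOXO factors, Foxo3 had the most open promoter and Foxo4 the least open. At the promoter, 500 bp on each side of the annotated start, Foxo1 (chromosome 3: 52268336 to 52353221) had 32.5 fragments per 1000000 nuclear fragments (FPM, 30.8 to 34.4) and Foxo3 (chromosome 10: 42181841 to 42276755) had 40.6 (38.7 to 42.7). Foxo4 (chromosome X: 101254528 to 101260873) had 13 (11.9 to 14.2). The median coding gene had 7.86, so all 3 lay above it, at the 81.3rd, 87.8th and 58.1st percentile. A promoter fragment of Foxo1 was seen in 27.4% of cells (26 to 28.9), of Foxo3 in 32.9% (31.3 to 34.4) and of Foxo4 in 11.8% (10.8 to 12.9). Foxo4 is X-linked, and the 948 X-linked coding genes had a median promoter level of 0.804, against 8.66 for autosomal genes. Within the X-linked genes Foxo4 stood at the 80.5th percentile.

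Foxo3 was set apart by the site 1008 bp upstream of its start, where no transcript start is annotated. It held 2818 insertions, more than 99.2% of all open sites, and a fragment in 39.2% of cells (37.6 to 40.9). The site at the Foxo3 start held 1664 insertions and a fragment in 26.2% of cells (24.8 to 27.7). A further accumulation was highest in the 25 bp bin at 1400 bp upstream, with 423 insertions. A 300 bp window that took it in was centred 1340 bp upstream and held 1579 insertions, some of them on the flank of the upstream site. This accumulation was noticed after the profile was drawn. It was not a site of its own because a window nearer to the upstream site held more. The other 4 Foxo3 sites were intronic, 25312 to 56182 bp into the gene, with 79 to 117 insertions. Foxo1 had its most open site at the start (1421 insertions) and a second one 78844 bp into the gene, over an exon, with 428 insertions. The share of fragments under 150 bp was 59.4% at this Foxo1 exon site and 41.5% at the Foxo1 start. In Foxo4 the more open of the start windows lay 388 bp upstream (431 insertions) and the other 38 bp upstream (362 insertions), and a further site lay in an exon 6152 bp into the gene (125 insertions).

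**Figure D1:**
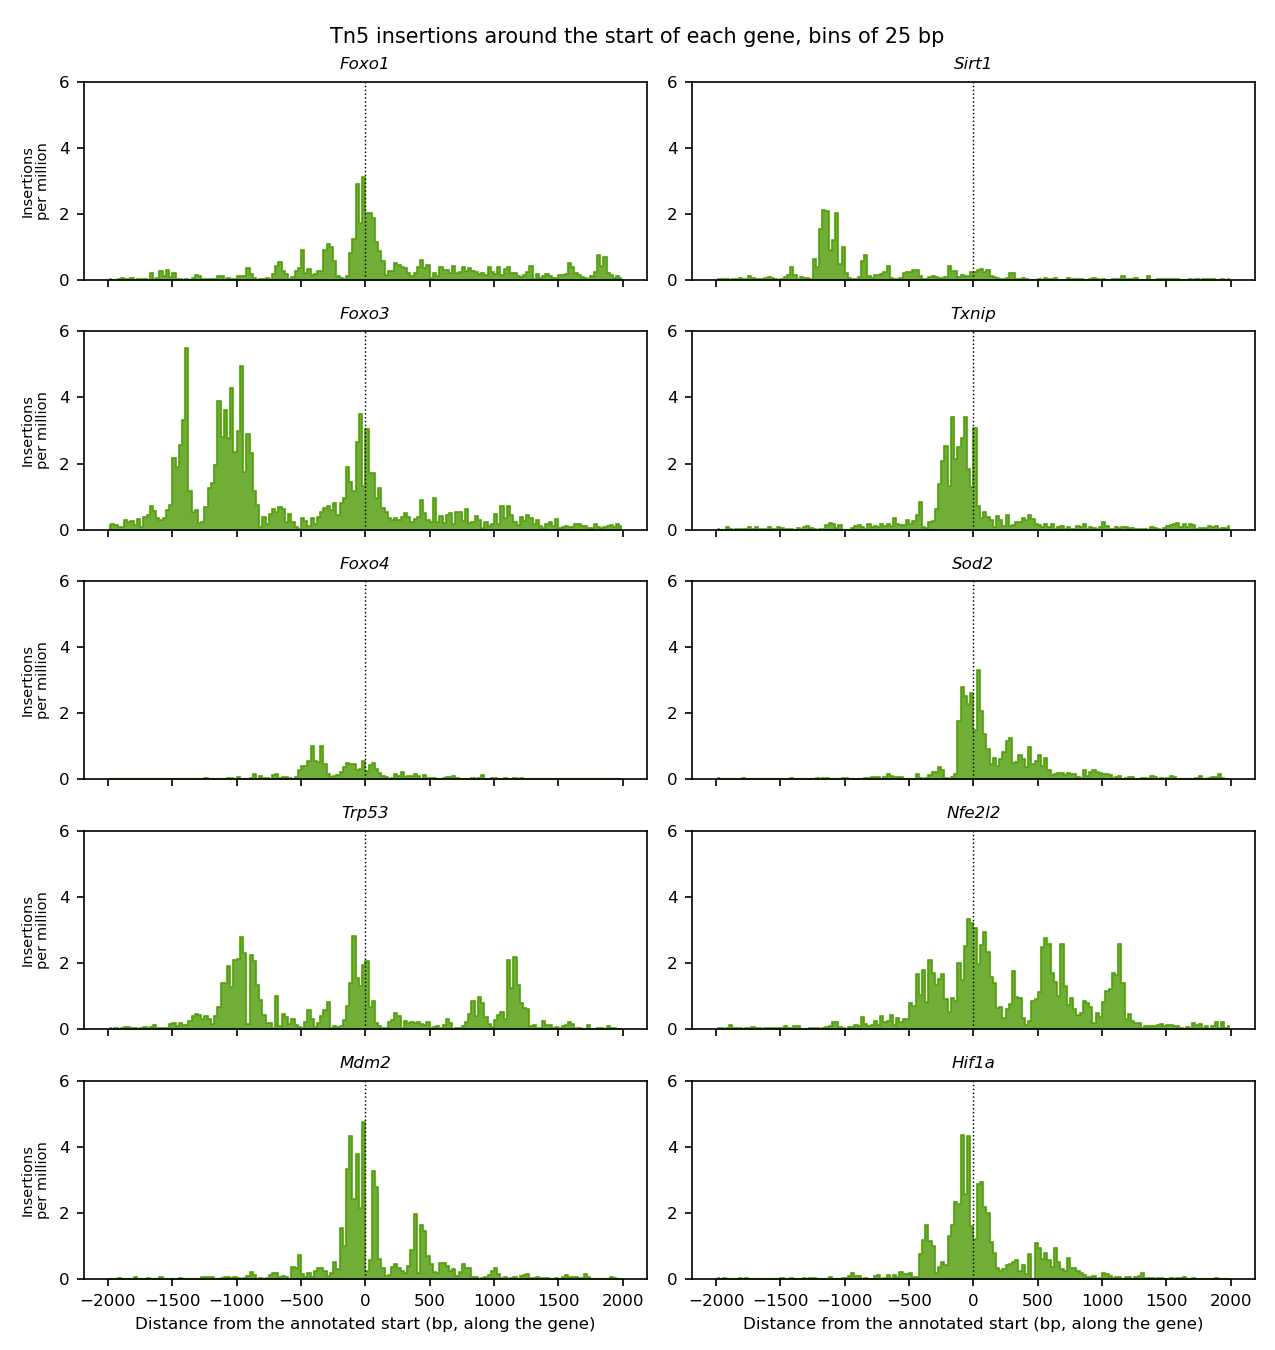
Tn5 insertions per 1000000 insertions in bins of 25 bp, by distance in bp from the annotated start of each gene (dotted line, positive along the gene), over all 3629 cells. Foxo3 has its highest bin 1400 bp upstream of the start and a broad accumulation around 1008 bp upstream. Sirt1 has its highest bin at -1175 bp (2.11) and 0.246 in the bin at 0. Nfe2l2 has 3 open sites centred within 1041 bp of its start, and further insertions upstream, with 2.1 in the bin at -350 bp.

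In the p53 axis, Mdm2 had the more open promoter and Trp53 the more open gene body. The Mdm2 promoter (gene at chromosome 10: 117688875 to 117710758) had 47.3 FPM (45.1 to 49.5), the 92nd percentile, and that of Trp53 (chromosome 11: 69580359 to 69591873) 26.5 (24.9 to 28.2), the 75th. Per kb of counted region the order turned, with 5.63 FPM per kb for Trp53 (5.43 to 5.84) and 2.49 for Mdm2 (2.39 to 2.6). The Trp53 region is shared with Wrap53, a telomerase cofactor gene that starts on the opposite strand, and ATAC fragments carry no strand, so the part of each gene could not be separated. The most open of its 3 sites, 979 bp upstream with 1620 insertions, lay at a Wrap53 start. The other Trp53 sites were at the start (1074 insertions) and 1151 bp downstream of it, in an intron (819 insertions).

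Mdm2 had 2 sites, both printed above. The one at the start held 2321 insertions and a fragment in 31.5% of cells (30 to 33.1). The one 508 bp downstream, where a further Mdm2 transcript starts and where the p53-responsive promoter of the gene is known to lie, held 702 insertions and a fragment in 13.5% (12.4 to 14.7). Fragments under 150 bp, shorter than those that span a nucleosome, made up 61.6% at the start and 25.3% downstream. Over the 13437 near-start sites the median was 38.5%, and the Mdm2 start was at the 92.3rd percentile.

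Sirt1 gave opposite pictures at its annotated starts. At the start used for ranking, that of a single long transcript, it had 7.26 FPM (6.44 to 8.16), an interval that held the median coding gene, and no open site lay within 500 bp. A window centred 42614 bp further along took in the start of 3 other Sirt1 transcripts. It carried 2328 insertions, more than 97.9% of all open sites, and a fragment in 32.3% of cells (30.8 to 33.9). When every coding gene was given its most open annotated start, an alternative chosen after seeing the data, Sirt1 had 49.5 FPM and moved from the 48.8th to the 91.9th percentile. The other 9 genes stayed between the 54.8th and the 98.4th. A further Sirt1 site 1106 bp upstream (973 insertions) lies towards Dnajc12, a chaperone gene whose annotation overlaps the counted region, so those fragments could not be assigned to either gene.

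Txnip was the most open gene per length. Its body (chromosome 3: 96557957 to 96561883) had 8.7 FPM per kb (8.33 to 9.1), the 97.3rd percentile, in a counted region of only 5.93 kb. Its promoter, at 39.5 FPM (37.5 to 41.5), was at the 87th percentile, and its single site held 2141 insertions. Fragments under 150 bp made up 61.2% there, the 91.9th percentile of near-start sites and close to the Mdm2 start. An antisense gene, Gm15441, overlaps the Txnip start and shares its fragments.

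Nfe2l2 had the highest promoter level of the 10 genes. It had 64.7 FPM (62.2 to 67.3), the 97.6th percentile, with a promoter fragment in 47.3% of cells (45.7 to 48.9). Its region (chromosome 2: 75675513 to 75704641) held 5 sites, of which 3 stood within 1041 bp of the start with 2200, 1527 and 1008 insertions. Another 2 were intronic, 19031 and 21551 bp into the gene, with 266 and 583 insertions. The start also serves E030042O20Rik, a non-coding gene. Sod2 (chromosome 17: 13006846 to 13040063) had 1 site only, at its start, with 1720 insertions and a promoter level of 36.3 FPM (34.4 to 38.3), the 84.4th percentile. With 35.2 kb counted and 75.7% of its fragments in the promoter window, its body level was 1.36 FPM per kb (1.3 to 1.43), the 63.9th percentile.

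Hif1a (chromosome 12: 73901375 to 73947530) had 50.8 promoter FPM (48.6 to 53.1), the 93.7th percentile, and 2355 insertions at its start. A window centred 6564 bp upstream, at another annotated start, held 139 insertions and a fragment in 2.4% of cells (1.92 to 2.95), against 33.2% at the main start (31.7 to 34.8). As in Sirt1, the more open of these starts was the downstream one. Gm15283 and Gm49321 overlap its counted region.

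In order of promoter level, Nfe2l2 stood first, then Hif1a and Mdm2, whose intervals overlapped, then Foxo3, Txnip and Sod2, each overlapping the next. Foxo1 followed at an interval that touched that of Sod2, and Trp53, Foxo4 and Sirt1 came last, each separate from its neighbours. Per kb of counted region, the order was Txnip, Trp53 and Nfe2l2, each separate, then Mdm2 and Foxo4, which overlapped, then Foxo3 at 1.93 and Sirt1 at 1.68, then Hif1a and Sod2, which overlapped, and Foxo1 at 1.06. The median coding gene had 0.821. As a set, the genes had a median promoter percentile of 85.7 and a median body percentile of 76.3. A cell carried a promoter fragment for a median of 3 of the 10 genes (range 0 to 9), and 141 cells for none, which at this depth says little of any single cell.

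**Figure D2:**
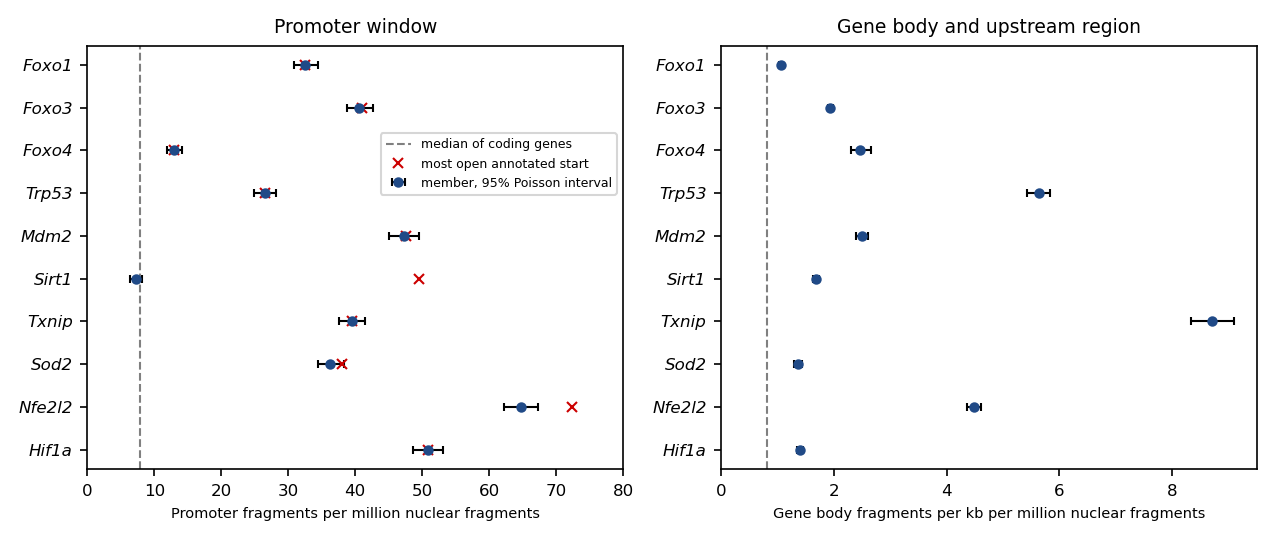
Promoter fragments per 1000000 nuclear fragments (FPM, left) and gene body FPM per kb (right) of the 10 genes with 95% Poisson intervals; the dashed line is the median coding gene and the cross the level at the most open annotated start. Sirt1 moves from 7.26 to 49.5 with the start chosen, and Txnip is highest per kb at 8.7.

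The mitochondrial share of ATAC reads can vary with the mitochondrial genomes in a cell and with how far its mitochondria were opened in preparation, and was used to ask whether accessibility of stress genes moved with it. Its median was 0.215% (range 0 to 11.5%). The highest 25% of cells, 907 cells, had a median of 0.724%, and the lowest 25%, also 907 cells, 0.0223%. Levels here are gene body FPM, without division by length. A ratio is called past the fold at a log2 ratio of at least 0.2 in size.

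Between the highest and lowest share, 9 of the 10 genes differed by 0.10 or less in log2 ratio. Foxo4 alone passed the fold, with 21.4 FPM in the highest 25% and 18.2 in the lowest, a log2 ratio of 0.23 (-0.07 to 0.53) whose interval included 0. Ranking cells within bins of the share in peak regions gave 0.19. That is 1 of 10 genes higher, beside 4.96% of 14792 coding genes with at least 200 fragments, and 0 of 10 lower, beside 5.92%. The next were Sod2 at 0.10 (-0.09 to 0.29) and Trp53 at 0.06 (-0.09 to 0.21), and the lowest was Mdm2 at -0.08 (-0.25 to 0.09). All 10 intervals included 0. Foxo4 was at the 96.7th percentile of coding genes and the 95.3rd of 405 X-linked genes with the minimum, whose median was -0.01. It had the fewest body fragments of the 10 genes, 796 over all cells against 1849 for Sod2, the next. Fewer fragments widen a ratio, and these percentiles were not matched for fragment count. Summed over the 10 genes, the ratio was -0.01 (-0.05 to 0.04).

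In 4 bins of cells from the lowest share (bin 1) to the highest (bin 4), Foxo4 had 18.2 (15.6 to 21.2), 20.4 (17.7 to 23.5), 22.4 (19.6 to 25.6) and 21.4 (18.6 to 24.5) FPM, and all 4 intervals overlapped. Hif1a had 65.6 (60.4 to 71), 76.8 (71.4 to 82.5), 62.2 (57.3 to 67.3) and 65.5 (60.6 to 70.8), so its bin 2 lay above the other 3 with no overlap. It was singled out after all 40 values were seen, and a difference of that size was not tested. Foxo3 had 189, 194, 184 and 182, and Nfe2l2 140, 136, 143 and 139. The bins were alike in depth, with a median of 10054 to 10459 nuclear fragments, and in the share of fragments in peak regions, 67.3% to 67.8%. Cells with excess overlap made up 10.7% of the highest bin and 4.74% of the lowest.

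**Figure D3:**
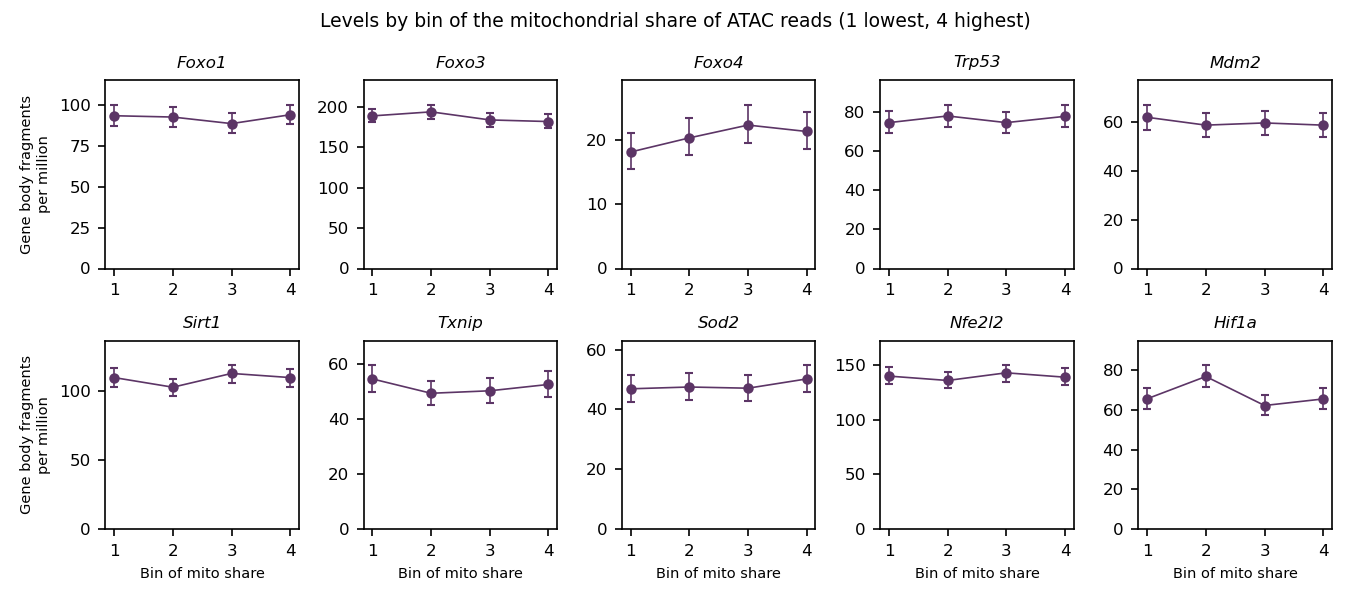
Gene body fragments per 1000000 nuclear fragments (FPM) of each gene by bin of the mitochondrial share (1 lowest, 4 highest), with 95% Poisson intervals and each axis starting at 0. Bin 2 of Hif1a stands at 76.8 while its other bins lie between 62.2 and 65.6.

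The antibody counts asked the same of surface proteins. CD61 is a platelet integrin, CD274 is the checkpoint ligand PD-L1, CD357 is the receptor GITR and CD27 is a TNF receptor family member, and the study used these 4 to divide aged HSCs. For CD61, 779 cells with at least 6 tags were compared with 727 cells with at most 1. Foxo4 had 21.6 and 18.4 FPM, a log2 ratio of 0.23 (-0.10 to 0.55), and Txnip 48.4 and 55.9, a ratio of -0.21 (-0.41 to -0.01). That is 2 of 10 genes past the fold in size, beside 13.6% of coding genes. For Txnip the promoter ratio was -0.16 (-0.39 to 0.07) and the ratio outside the promoter -0.37. Cells with excess overlap made up 13.6% of the CD61 high and 5.23% of the low cells, and without them Txnip was at -0.17, short of the fold. With wider groups of 33% of cells, Foxo4 was at 0.02 and Txnip at -0.11.

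Over gene bodies, CD274 gave the largest ratio of any of the 10 genes in these 4 comparisons, again for Foxo4. The 937 cells with at least 27 tags had 22.7 Foxo4 FPM and the 877 cells with at most 12 tags had 17.7, a log2 ratio of 0.36 (0.06 to 0.65). Of the 10 genes 1 passed the fold, beside 16.2% of coding genes. In the Foxo4 promoter, the ratio was 0.49 (0.12 to 0.87), from 154 and 99 fragments, and outside the promoter 0.13. Foxo4 was at the 98.8th percentile of coding genes and the 97.6th of 410 X-linked genes, whose median was -0.02. These percentiles, too, were not matched for fragment count, and Foxo4 had the fewest fragments of the 10 genes. The CD274 high cells had more fragments in peak regions (68.5% against 66.3%), and the part of this in the ratio was not tested, while scaling by promoter fragments gave 0.33. Cells with excess overlap made up 13% of the CD274 high and 6.39% of the low cells. Among the 363 cells with at least 50 tags, the ratio was -0.06, on 25 and 24 fragments, fewer than the minimum of 200. High and low were drawn anew within these cells (88 and 94 cells), so the low cells need not be low among all cells. Sod2 was at 0.15 (-0.03 to 0.34), with 0.23 (0.01 to 0.45) in its promoter, and Sirt1 at 0.11 (-0.01 to 0.24). The Sirt1 promoter window lay at the start used for ranking, with no open site within 500 bp, and the more open Sirt1 start was not compared on its own. This window missed the minimum of 200 fragments by CD274 and by CD61. In it the CD274 ratio went the other way, -0.37 (-0.87 to 0.13) from 65 and 76 fragments. By CD61 it was 0.64 (0.05 to 1.27) from 67 and 37 fragments, against 0.02 (-0.12 to 0.15) over the gene body.

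No gene passed the fold by CD357 or by CD27. For CD357, 968 cells with at least 5 tags against 1200 with at most 1, 0 of 10 genes passed, beside 9.66% of coding genes, and the ratios ran from -0.12 (Sod2) to 0.07 (Txnip). For CD27, 825 cells with at least 2 tags against 1578 with none, 0 of 10 passed, beside 8.51%, and the ratios ran from -0.10 (Txnip) to 0.14 for Foxo1 (0.02 to 0.26). Foxo4 stood at -0.02 and 0.12 in these comparisons. The 4 comparisons share cells, and cells high for an antibody had more tags in all (medians of 46 against 17 for CD274 and 36 against 22 for CD61), so they are not independent. Over the other 8 antibodies, the widest ranges belonged to the smallest groups, -0.42 to 0.27 for CD206 with 82 tagged cells and -0.39 to 0.22 for CD163 with 71. Over gene bodies the rest ran from -0.21 (Foxo4 by CD106) to 0.15 (Foxo1 by CD68). By CD201, 1119 cells with at least 1 tag against 2510 with none, the Foxo4 promoter ratio was 0.40 (0.12 to 0.66), from 185 and 316 fragments. It was -0.46 outside the promoter and 0.10 (-0.12 to 0.31) over the gene body, and was picked out after it was seen. By the rest of these 8 antibodies the Foxo4 promoter ratio ran from -0.22 (CD68) to 0.57 (CD206), and all those intervals included 0. Promoter intervals without 0 were also seen for Foxo3 by CD183, Nfe2l2 by CD163 and Txnip by CD206. Over gene bodies they were seen for Trp53 by P2X7R, at 0.13 (0.02 to 0.24), Foxo3 by MERTK, at -0.13 (-0.23 to -0.04), and 1 gene by CD201. All were picked from many intervals, and the share of coding genes with such intervals was not counted, so they single out no gene.

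**Figure D4:**
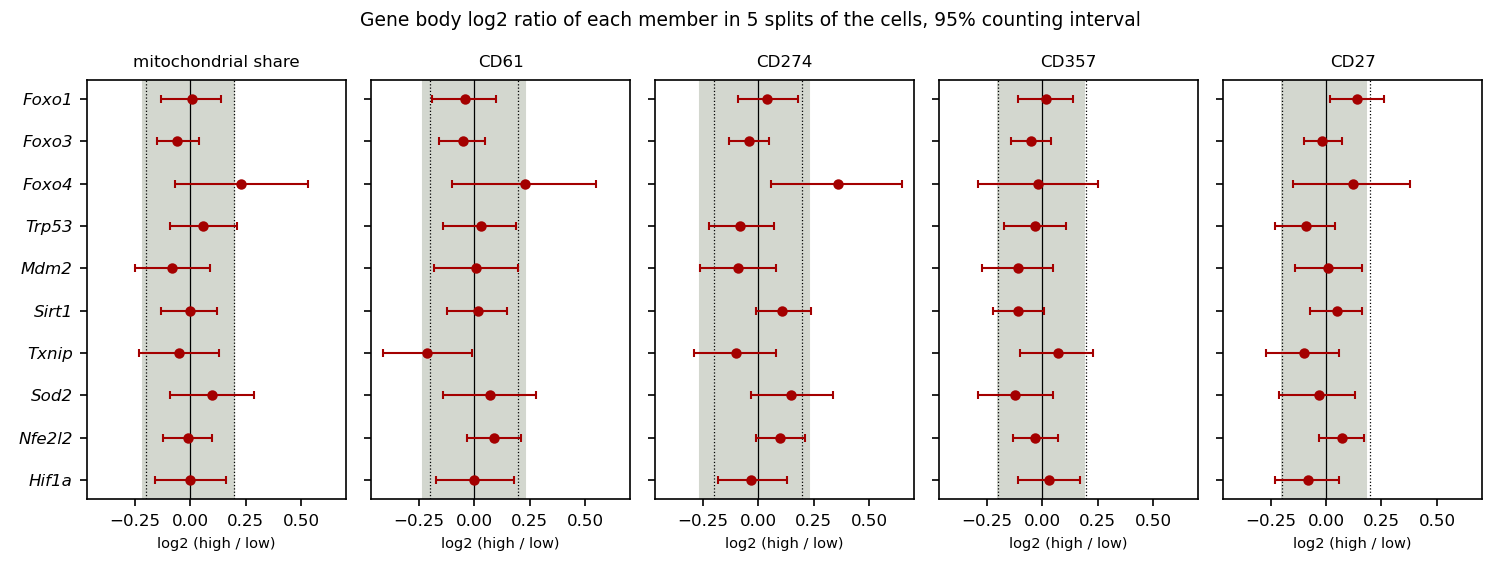
Log2 ratio of gene body fragments, high over low cells, for each gene in the comparisons by mitochondrial share, CD61, CD274, CD357 and CD27, with 95% counting intervals; dotted lines mark 0.2 in size and grey the 5th to 95th percentile of coding genes. Foxo4 by CD274, at 0.36, stands outside the grey range with an interval above 0.

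The study's gates combine the 4 antibodies. PLT cells, the platelet-biased type, were taken here as those with CD61 and CD274 tags above the median but neither CD357 nor CD27 tags above it, and MUL cells, the multilineage type, as the reverse. Only 342 and 61 cells met these, and 468 fragments of the 10 genes fell in the MUL cells. Foxo4 had 64 and 6 fragments, a log2 ratio of 0.75 (-0.35 to 2.35), and Txnip 182 and 40, a ratio of -0.39 (-0.87 to 0.16). All 10 intervals included 0. Centred log ratios set the log count of each antibody against the mean log count of all 12 antibodies in the cell. With gates on these, which gave 251 and 252 cells, Foxo4 was at -0.35 (-0.94 to 0.23) and Txnip at -0.30 (-0.66 to 0.05). Foxo4 changed direction with the gate, and no difference between the gates was detectable for it at this depth.

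The genes around the 10 were read in 9 lists of regulators, partners and targets, 137 genes in all, of which 136 had at least 200 fragments in the mitochondrial comparison. Of these, 2 were higher (1.47%) and 7 lower (5.15%), beside the 4.96% and 5.92% of all coding genes given above. List medians ran from -0.10 (p53 regulators) to 0.00, against -0.01 over all genes. FOXO regulators had 0 of 14 past the fold, with Akt1 and Sgk1, kinases that inactivate FOXO proteins, lowest at -0.12, and Usp7 at 0.04. FOXO targets had 1 of 19 lower, Gadd45a, a growth arrest gene, at -0.21 (-0.40 to -0.03), and 0 higher. Cited2 was next lowest at -0.14, and Cdkn1a, the cell cycle inhibitor p21, and Bcl2l11, a death gene, were highest at 0.13 and 0.05.

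Among the p53 regulators, 2 of 13 were lower, Rchy1, a ubiquitin ligase for p53, at -0.25 (-0.43 to -0.08) and Cdkn2a, which encodes an MDM2 inhibitor, at -0.21 (-0.44 to 0.02). The DNA damage kinases Atm and Chek2 were highest, at 0.13 and 0.09. The p53 targets split, 2 of 25 lower and 2 higher. The lower were Pmaip1, which encodes the death protein NOXA, at -0.35 (-0.63 to -0.08) and Psrc1 at -0.32 (-0.64 to 0.01), and the higher were Perp at 0.26 (-0.07 to 0.58) and the death receptor gene Fas at 0.23 (-0.13 to 0.59). These 4 had 267 to 438 fragments over both groups, so their intervals were wide.

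NRF2 partners and targets had 2 of 19 lower and 0 higher. The lower were Hmox1, which encodes the haem-degrading enzyme, at -0.43 (-0.72 to -0.14) with 181 and 227 fragments, and Keap1, which encodes the inhibitor that targets NRF2 for degradation, at -0.22 (-0.42 to -0.02). Slc7a11, the cystine transporter gene, and Maff were highest, both at 0.07. None of 16 antioxidant enzymes passed, with Sod1, the cytosolic superoxide dismutase gene, highest at 0.19 (0.01 to 0.38) and Txnrd2 next at 0.09, and Cat (-0.13) and Glrx (-0.11) lowest.

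None of 20 HIF partners and targets passed the fold, from Pgk1, a glycolytic enzyme gene, at -0.14 and P4ha1 at -0.11 to Hif1an at 0.08 and Adm at 0.17. Among 9 sirtuin and NAD genes none passed, from Parp1 at -0.19 and Nmnat1 at -0.12 to Nampt at 0.04 and Sirt4 at 0.06. The 9 TXNIP partners gave none, from Mlx and Arrdc2 at -0.11 to Txn1, thioredoxin itself, at 0.09 and Itch, a ligase for TXNIP, at 0.14.

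**Figure D5:**
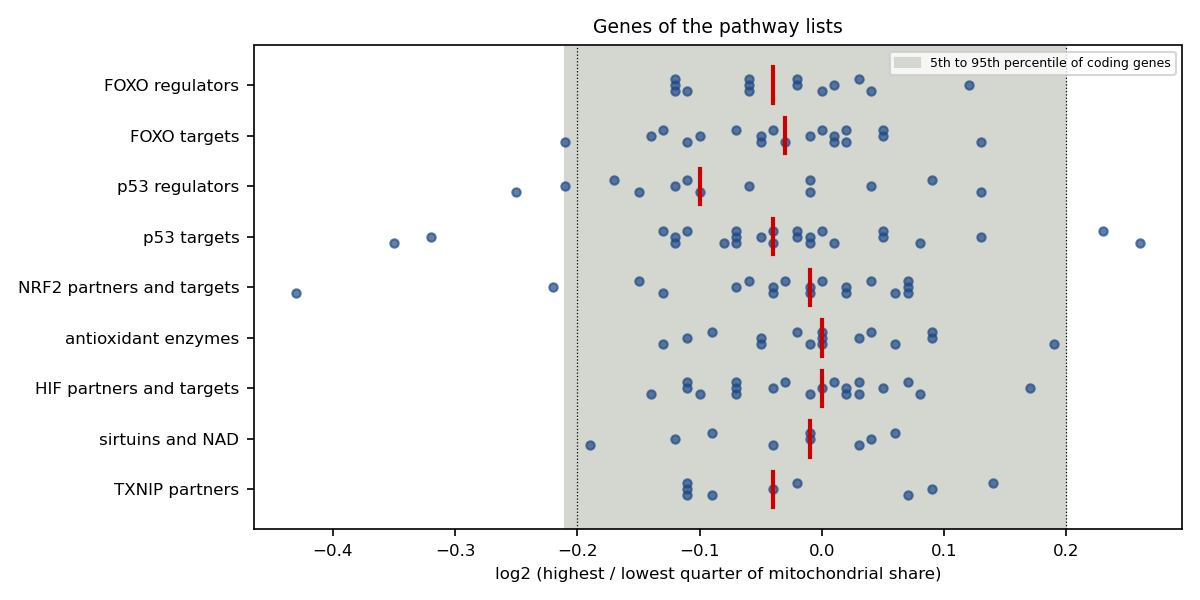
Log2 ratio of gene body fragments between the highest and lowest 25% of cells by mitochondrial share for every list gene with at least 200 fragments; red bars are list medians, dotted lines mark 0.2 in size and grey the 5th to 95th percentile of coding genes. Hmox1 at -0.43 and Pmaip1 at -0.35 lie farthest out.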

How the data were processed

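The authors mapped the ATAC and RNA reads to mm10 with Cell Ranger ARC 2.0.2 and deposited, per the file headers, unique fragments with ends shifted for the transposase and barcode totals, all as counts. The authors deposited antibody tag counts from CITE-seq-Count (version not given in the sources); 12.1% of tags matched no antibody and were left out. The 10 genes and the 9 lists were chosen with earlier results of these data known. Here a fragment was counted for every region it overlapped, in 3629 cells, with GENCODE annotation on mm10 (Python 3.11.15, numpy 2.4.6, scipy 1.17.1, pandas 2.3.3). The start of a gene was that of its principal transcript. Ratios used 0.5 added to each count and totals of nuclear fragments. Their calculation was run on simulated Poisson counts, the error that the intervals assume, so no other spread was checked. Antibody groups were the tag counts nearest to the highest and lowest 25% of cells. Genes were called at 0.2 in size with at least 200 fragments over both groups. Besides the 10 genes, the rule named the 2 highest and 2 lowest of each list by mitochondrial share, of which 1 is not reported here, and the Foxo3 upstream window and Hif1a bin were chosen after their values were seen. Each group was 1 part of 1 pool, so no test was run. Alternatives covered the promoter width and start, site thresholds, cell filters, scaling, group size and ranking within depth.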

Additional observations from a re-analysis of the deposited data

How the results depend on the processing

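All values rest on 1 pool, so no replicate could be left out, and no paired analysis was possible because no group had replicates. Alternatives kept the median promoter percentile of the 10 genes between 85.3 and 87.7, except starts at the 5′ end of the gene (78.8). The median body percentile was 75.1 to 76.5, and 82.5 without the promoter window. The genes held 35 open sites, 26 to 30 with a higher insertion minimum or wider windows, and 18 at 8 times the local mean. Among the 363 cells with at least 50 tags, 3 to 5 of the 10 genes kept 200 fragments, and of these 1 passed the fold by mitochondrial share, 2 by CD61, 2 by CD274, 2 by CD357 and 1 by CD27, beside 28.1% to 30.4% of coding genes. There the ratio summed over the 10 genes was 0.10 for CD61 and -0.21 for CD357, against 0.00 and -0.04. Foxo4 by CD274 changed sign, to -0.06, on fewer than 200 fragments. The groups were drawn anew within these cells, so they were not the same contrast as over all cells. By mitochondrial share the 1 gene became 0 when cells were ranked within bins of the share in peak regions (10.6% of coding genes in either direction), with Foxo4 at 0.19. By CD61 the 2 genes became 1 without excess-overlap cells (15.1%), 1 without the deepest 5% of cells (14.6%), 1 in the promoter window (17.8%), 0 with wider groups of 33% of cells (8.57%) and 0 with centred log ratios (11.6%). By CD357 the count of 0 became 1 without excess-overlap cells (11.3%). With the promoter window only, where Sirt1 missed the minimum, 2 genes passed by CD274 (19.6%), 0 by CD357 (13%) and 1 by CD27 (13.3%), and 14 of 122 list genes by mitochondrial share (15.5%). With no fragment minimum, 26.4% to 36% of coding genes passed. Fewer fragments per gene widen these ratios; other causes were not tested. For the remaining settings, Foxo4 by CD274 ran from 0.31 to 0.49.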

Other observations

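At the start used for ranking, 3 of the list genes named above had promoters more open than any of the 10. Txn1, which encodes thioredoxin, had 77.9 promoter fragments per 1000000 nuclear fragments (FPM, 99.2nd percentile of coding genes), the arrestin-domain gene Arrdc2 had 74.4 (98.9th) and Nampt, the rate-limiting enzyme of NAD salvage, had 72 (98.7th), against 64.7 for Nfe2l2. Cited2, which encodes a transcriptional co-regulator that restrains HIF-1α, had 61 (96.9th). At the most open annotated start, Nfe2l2 had 72.3 and Nampt stayed at 72, so Nampt was then no longer above all of the 10. The start used for ranking mattered for some of the list genes, as for Sirt1. Cdkn1a had 0.389 FPM at that start and 18.1 at another annotated start 2790 bp downstream, and Maff had 5.21 and, 899 bp downstream, 59.3. Cdkn1a and Maff were singled out after their values were seen.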
